A study of Mus musculus with 9 samples.

Results

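The beta-galactosidase family in these data comprised 4 genes, Glb1l3, Glb1l2, Glb1l and Glb1, out of 22337 genes in the expression table. They were found as the rows whose symbol was one of these names, and each symbol had 1 row. Glb1l3 was chosen from its fall in rd10 retina, which was one of the largest in the table, so its NS against WT values are a description without a test. The other 3 genes were chosen as its relatives, with earlier results of these data known.

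RNA-seq was performed on mouse retina at P28, with 3 libraries in each of 3 groups. WT retinas came from untreated C57BL/6J mice. Both rd10 groups carry the rd10 mutation of Pde6b, the gene for a subunit of the rod phosphodiesterase, and lose their rods early in life. NS-treated rd10 mice received normal saline and MSC-EVs-treated rd10 mice received extracellular vesicles from human umbilical cord mesenchymal stem cells, 1 μl into the vitreous of each eye at P14 and P21. The WT mice came from another supplier than the rd10 mice and were not injected, so mutation, stock and injection cannot be told apart between WT and either rd10 group. Nothing ties a library to a separate animal, so the p-values measure the spread between these libraries only.

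The total estimated count per library ran from 19491717 to 62532343, with MSC-EVs replicate 3 the deepest. Pde6b fell 4.69-fold in NS-treated rd10 (log2 fold change -2.23, SE 0.10, adjusted p = 3.02e-08, edgeR). Summed over 18 rod markers the level was 92252 to 98426 CPM (counts relative to library size) in WT, 19205 to 27232 CPM in NS and 20090 to 27590 CPM in MSC-EVs. In this bulk tissue, fewer cells of a type and less RNA per cell cannot be told apart. Counts from 4 Y-linked genes summed to 183 and 189 CPM in MSC-EVs replicates 1 and 2 and to at most 0.501 CPM in the other 7 libraries. These 2 libraries stood apart from all others, and log2 fold changes between the rd10 groups were also computed without them. That leaves only MSC-EVs replicate 3 in its group.

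Beta-galactosidases remove a terminal galactose joined by a beta bond from a sugar chain. Glb1 encodes the acid beta-galactosidase of the lysosome, which breaks down ganglioside GM1 and keratan sulfate. It works in a complex with the protective protein cathepsin A (Ctsa) and the sialidase Neu1, and its loss in people causes GM1 gangliosidosis, a storage disease of neurons that also marks the retina with a cherry-red spot. Glb1l, Glb1l2 and Glb1l3 encode relatives of the same glycoside hydrolase family (family 35), whose natural substrates are less well known.

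Glb1l3 lay on chromosome 9 at 26817953 to 26860890, minus strand, with 4 annotated transcripts (GRCm38, GENCODE M21). Glb1l2 followed it on the same strand at 26763044 to 26806468 with 8 transcripts, and 11484 bases separated them. On the other side of Glb1l3 lay Gm1110, at 26879567 to 26923111 on the same strand, which the deposited annotation also lists under beta-galactosidase activity. It was not one of the 4 genes and is given here as a neighbour. Glb1 lay far off on the same chromosome, at 114401076 to 114474898 on the plus strand, with 2 transcripts. Glb1l lay on chromosome 1 at 75198236 to 75210813, minus strand, with 12 transcripts.

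The coding stretch around the catalytic acid of the family is shown because it lets the relatives be compared base by base. Each run is 39 bases of coding sequence, 5′ to 3′ along the coding strand, read from GENCODE M21 transcripts, and the capitals mark the codon of the glutamate that acts as proton donor. In Glb1l the family pattern did not match in full and the run was placed by alignment with Glb1.
Glb1l3: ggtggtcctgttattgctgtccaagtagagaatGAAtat
Glb1l2: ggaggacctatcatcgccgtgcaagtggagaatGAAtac
Gm1110: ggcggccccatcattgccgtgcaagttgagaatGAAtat
Glb1l: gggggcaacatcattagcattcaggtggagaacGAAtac
Glb1: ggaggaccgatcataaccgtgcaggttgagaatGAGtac

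The runs lie at chr9:26850084-26850122 (Glb1l3, exon 7 of 20), chr9:26780719-26780757 (Glb1l2, exon 7 of 20) and chr9:26902470-26902508 (Gm1110, exon 7 of 21). That of Glb1l crosses an intron within chr1:75202735-75202870 (exons 6 and 7 of 17), and that of Glb1 within chr9:114424016-114430327 (exons 5 and 6 of 16). The donor codon was GAA in each gene except Glb1, which had GAG. Glb1l3 differed from Gm1110 at 8 of the 39 bases, from Glb1l2 at 9, from Glb1 at 13 and from Glb1l at 16. Over the whole predicted proteins, Glb1l3 and Glb1l2 shared 54.9% of aligned residues and Glb1l and Glb1 53.6%. Glb1l3 shared 45.4% with Gm1110, 41% with Glb1l and 39.5% with Glb1. Among the 4 genes, Glb1l3 and Glb1l2 thus formed a tandem pair, and Glb1l and Glb1 a pair of distant genes. Gm1110, which lies beside the tandem pair, shared 47.8% with Glb1l2. The longest run of coding bases that Glb1l3 shared with Glb1l2 was 19. No 50-base stretch of a Glb1l3 transcript occurred in another gene, and 1.0% of those of Glb1l2, 6.9% of Glb1l and 4.3% of Glb1 did.

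In WT retina Glb1l2 was the most abundant member by a wide margin. Its level per transcript length and depth was 70.59, 63.59 and 67.18 FPKM, a mean of 67.1 ± 3.5 (SD, n = 3), which was above 94.9% of the genes with an FPKM over 0. Glb1 followed with 4.73, 4.32 and 4.22 FPKM (4.42 ± 0.27), then Glb1l3 with 3.48, 4.34 and 4.39 FPKM (4.07 ± 0.512) and Glb1l with 2.91, 2.95 and 3.33 FPKM (3.06 ± 0.232). The WT libraries of Glb1 and Glb1l3 overlapped, so these neighbours in the order were not separated by their spread. Glb1l3 was above Glb1l in each WT library. Glb1l2 made up 85.3% of the summed FPKM of the 4 genes in WT, and Glb1, Glb1l3 and Glb1l 5.62%, 5.19% and 3.9%.

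**Figure D1:**
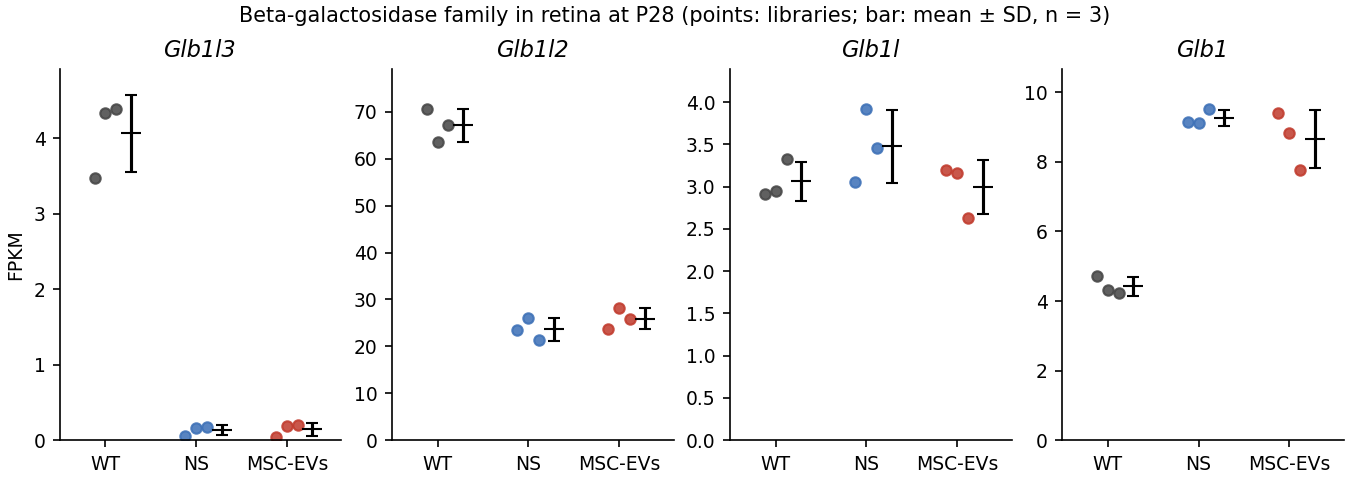
FPKM of Glb1l3, Glb1l2, Glb1l and Glb1 (vertical axes, from 0, a separate scale per gene) in the WT, NS-treated and MSC-EVs-treated libraries; points are libraries and the bar beside them is the mean ± SD (n = 3). Glb1l3 lies at 3.48 to 4.39 in WT and at or below 0.2 in every rd10 library, Glb1l2 falls to 21.3 to 28.11, Glb1 rises to 7.76 to 9.52, and the groups of Glb1l overlap.

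Glb1l3 was nearly absent from the rd10 retina. Its estimated counts were 213, 263 and 241 in WT and 4, 8 and 9 in NS. On the FPKM scale the NS libraries held 0.06, 0.16 and 0.18, a mean of 0.133 ± 0.0643 (SD, n = 3) against 4.07 ± 0.512 in WT. The lowest WT library lay far above the highest NS library. The fitted log2 fold change was -5.21 (SE 0.27), or 37.1-fold lower.

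This was the 4th largest fall among the 14644 genes fitted, given as a description because the fall chose the gene. Above it stood the predicted genes Gm13304 and Gm10184, which had 0 counts in every NS library, and Gm3893 (-5.36). Next below it were Gm4756, with 1 count in each NS library, the histamine-forming enzyme Hdc (-3.91) and Pdzph1 (-3.66). Of all genes fitted, 61.3% passed the test in either direction, 31.2% higher and 30.1% lower, and 12.7% passed with a log2 fold change of at least 1 in size.

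Rod markers fell as well, by less. The 18 rod markers were all lower in NS, with a median log2 fold change of -1.78 against 0.01 over all genes. The median marker was Rom1, a disc rim protein (-1.77, SE 0.11, adjusted p = 3.94e-07). As a description, Glb1l3 set against the summed rod markers was 1.16 ± 0.154 CPM per 10000 CPM of rod markers in WT and 0.139 ± 0.0783 in NS (SD, n = 3). The ratio in the NS libraries was 0.0581, 0.144 and 0.215, all below the lowest WT ratio of 0.988. For Glb1l2 the same ratio was 27 ± 1.09 in WT and 35.2 ± 2.98 in NS, and each NS library lay above each WT library. The cell type in which either gene is expressed was not tested.

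Glb1l2 fell in NS-treated rd10 from 259 ± 15.5 to 80.9 ± 7.37 CPM (SD, n = 3), a log2 fold change of -1.68 (SE 0.07, 95% interval -1.84 to -1.52, 3.21-fold, adjusted p = 4.62e-09, edgeR). Its NS libraries held 23.42, 26.09 and 21.3 FPKM. No NS library came near the lowest WT value of 63.59 FPKM. In the NS retina it was still the most abundant of the 4 genes, above 80.2% of genes with an FPKM over 0.

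Glb1, the lysosomal enzyme, rose. Its CPM went from 11.5 ± 0.714 in WT to 21.3 ± 0.437 in NS (SD, n = 3), a log2 fold change of 0.88 (SE 0.09, 95% interval 0.69 to 1.08, 1.85-fold, adjusted p = 3.59e-06, edgeR). The NS libraries held 9.14, 9.13 and 9.52 FPKM against at most 4.73 in WT, so the groups did not overlap. Tmppe shares a start region and 165 exonic bases (5.5% of those of Glb1) with Glb1 on the same strand. Its own estimated counts were 86, 48 and 41 in WT and 126, 51 and 77 in NS, which overlapped (log2 fold change 0.36, adjusted p = 0.286, edgeR).

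Glb1l did not pass the test. Its CPM was 8.95 ± 0.957 in WT and 7.49 ± 0.831 in NS (SD, n = 3), a log2 fold change of -0.26 (SE 0.13, 95% interval -0.55 to 0.03, adjusted p = 0.103, edgeR). On the FPKM scale its mean was higher in NS, with 3.06, 3.92 and 3.46 FPKM (3.48 ± 0.43), so the sign depended on the unit. The units differ in depth scaling as well as in length. CPM carried TMM factors of 0.92 to 0.9322 in WT and 1.037 to 1.052 in NS, and FPKM did not. The part of each in the sign was not tested. The transcript length implied by the deposited count and FPKM was 2.57 to 2.77 kb in WT, 2.22 to 2.3 kb in NS and 2.38 to 2.7 kb in MSC-EVs. For Glb1 it stayed at 2.4 to 2.41 kb and for Glb1l2 at 3.55 to 3.64 kb in every library. The values of Glb1l thus carried a shorter mean length in NS, and which of its 12 transcripts gave it was not tested. Glb1l also shares 505 exonic bases, 8.6% of its own, with Ankzf1 on the opposite strand, and reads there cannot be told apart where counting does not use strand. Ankzf1 changed by -0.69 on the log2 scale in the same comparison.

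These unequal changes altered the makeup of the family. The summed FPKM of the 4 genes was 78.7 ± 3.28 in WT and 36.5 ± 2.52 in NS (SD, n = 3). The share of Glb1l2 went from 85.3% to 64.6%, that of Glb1 from 5.62% to 25.5%, that of Glb1l from 3.9% to 9.53% and that of Glb1l3 from 5.19% to 0.366%. On the CPM scale, which is not per length, the share of Glb1l2 went from 89.1% to 73.5% and that of Glb1 from 3.96% to 19.4%.

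**Figure D2:**
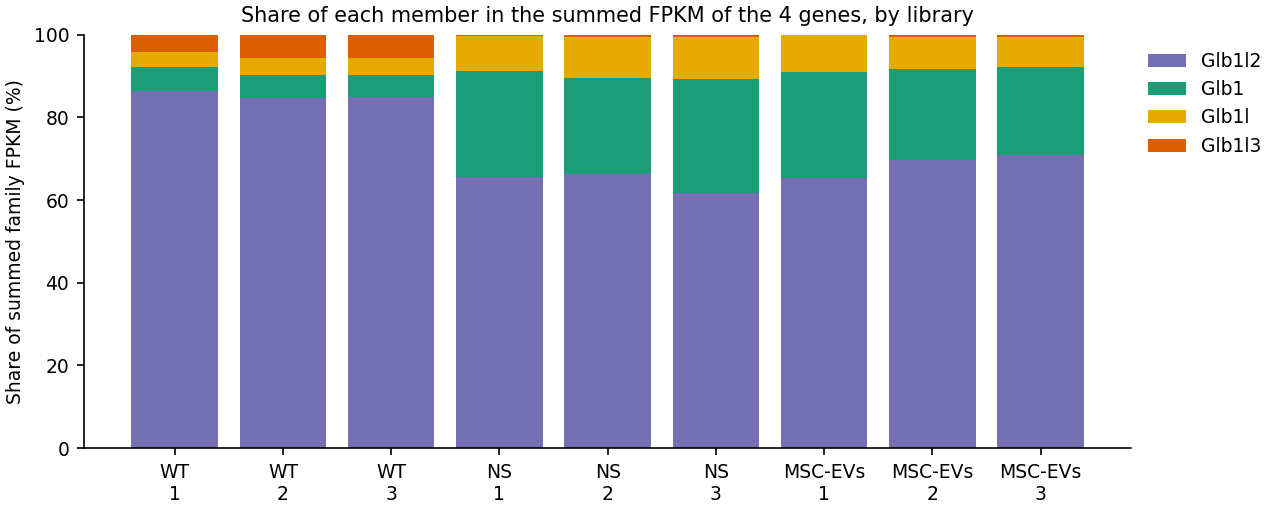
Share of each gene in the summed FPKM of the 4 genes (vertical axis, percent), one stacked bar per library, in the order WT, NS and MSC-EVs. Glb1l2 takes 85.3% on average in WT, 64.6% in NS and 68.7% in MSC-EVs, while the share of Glb1 goes from 5.62% to 25.5% and 23%.

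No member differed detectably between the rd10 groups. Glb1l3 had estimated counts of 2, 11 and 31 in the MSC-EVs libraries, or 0.04, 0.19 and 0.2 FPKM, which overlapped with the 0.06 to 0.18 FPKM of NS. The mean was 0.143 ± 0.0896 FPKM (SD, n = 3). Glb1l3 failed the filter on low counts here and was not tested. Fitted without that filter, its log2 fold change was 0.25 (SE 0.66, adjusted p = 0.883, edgeR). Without the 2 libraries with Y-linked counts, which leaves only MSC-EVs replicate 3 in that group, it was 0.69. A change of the gene between the rd10 groups was not detectable at this depth.

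The 3 relatives were tested between the rd10 groups and none passed, where 1.16% of 14765 genes did. Glb1l2 held 23.77, 28.11 and 25.89 FPKM in MSC-EVs, and its log2 fold change was 0.15 (SE 0.09, 95% interval -0.05 to 0.35, adjusted p = 0.377, edgeR). Glb1l held 3.2, 3.16 and 2.63 FPKM, with a log2 fold change of -0.00 (95% interval -0.33 to 0.33, adjusted p = 0.995, edgeR). Glb1 held 9.41, 8.82 and 7.76 FPKM, with a log2 fold change of -0.08 (95% interval -0.30 to 0.13, adjusted p = 0.669, edgeR). The libraries of the rd10 groups overlapped for each of them. Pde6b gave 0.16 (adjusted p = 0.67, edgeR), and the summed rod markers overlapped too.

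MSC-EVs-treated rd10 was also set against WT, a comparison that shares the WT libraries with the one above. Glb1l3 was 29.1-fold lower (log2 fold change -4.86, SE 0.35), given without a test for that reason. Glb1l2 was lower (-1.53, SE 0.07, adjusted p = 3.57e-07, edgeR) and Glb1 higher (0.80, SE 0.10, adjusted p = 0.000138, edgeR), while Glb1l did not pass (-0.26, SE 0.13, adjusted p = 0.12, edgeR). Of 14623 genes, 55.5% passed in this comparison, 28.3% higher and 27.2% lower. The summed FPKM of the 4 genes was 37.7 ± 2.21 in MSC-EVs (SD, n = 3), with shares of 68.7% for Glb1l2, 23% for Glb1, 7.95% for Glb1l and 0.377% for Glb1l3.

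**Figure D3:**
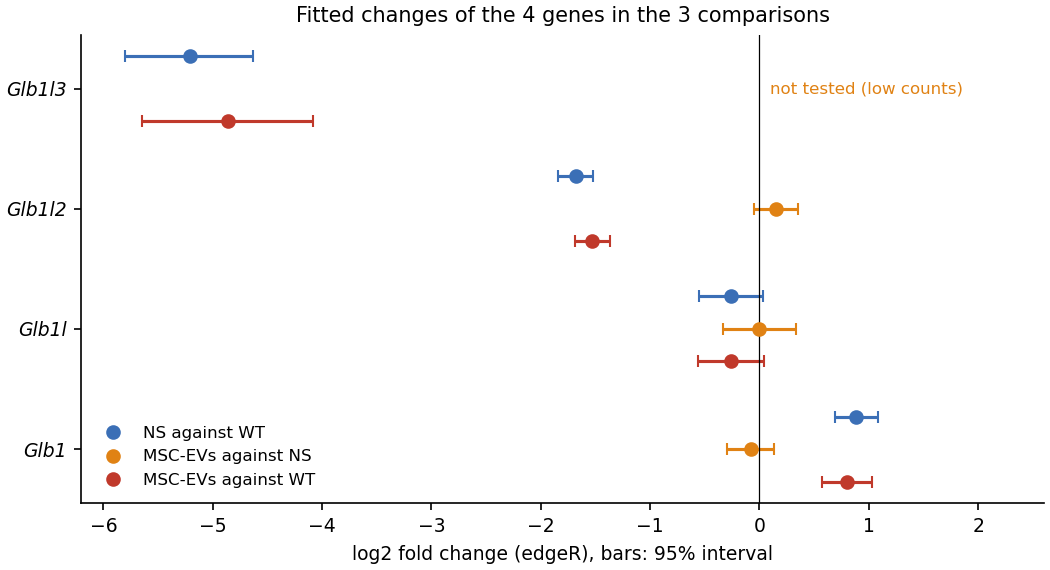
Fitted log2 fold change (horizontal axis) of Glb1l3, Glb1l2, Glb1l and Glb1 in NS against WT (blue), MSC-EVs against NS (orange) and MSC-EVs against WT (red), with 95% intervals from edgeR as bars. Both comparisons with WT put Glb1l3 between -5.21 and -4.86, Glb1l2 between -1.68 and -1.53 and Glb1 between 0.80 and 0.88, and the 3 intervals between the rd10 groups include 0.

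The neighbours of Glb1l3 on chromosome 9 moved in both directions. Gm1110 was low throughout, with estimated counts of 28, 15 and 15 in WT, 11, 6 and 2 in NS and 3, 6 and 9 in MSC-EVs. It passed the filter on low counts only through its WT level, so its log2 fold changes of -1.76 (SE 0.48) in NS and -2.40 (SE 0.46) in MSC-EVs against WT are a description, and it was not tested between the rd10 groups. Within 500 kb of Glb1l3 lay 9 genes of the table, all of them in the NS against WT fit. Besides Gm1110, 4 were lower, 2 were higher and 2 did not pass, where 61.3% of all genes passed in either direction. Besides Glb1l2, the lower ones were Acad8 (-0.55), a mitochondrial acyl-CoA dehydrogenase, Thyn1 (-0.49) and Ncapd3 (-0.53), a condensin subunit. B3gat1 (0.34), the glucuronyltransferase of the HNK-1 epitope, and Jam3 (0.62), a junction protein, were higher. Vps26b (-0.06) and Igsf9b (0.18) did not pass. The log2 fold changes of the other neighbours were at most 0.62 in size. Between the rd10 groups none of the 8 neighbours tested passed with edgeR, where 1.16% of 14765 genes did. Of these neighbours 2 had an unadjusted p under 0.05, against 2980 of 14765 over all genes. DESeq2 called 1, against 910 of 18173 genes fitted.

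**Figure D4:**
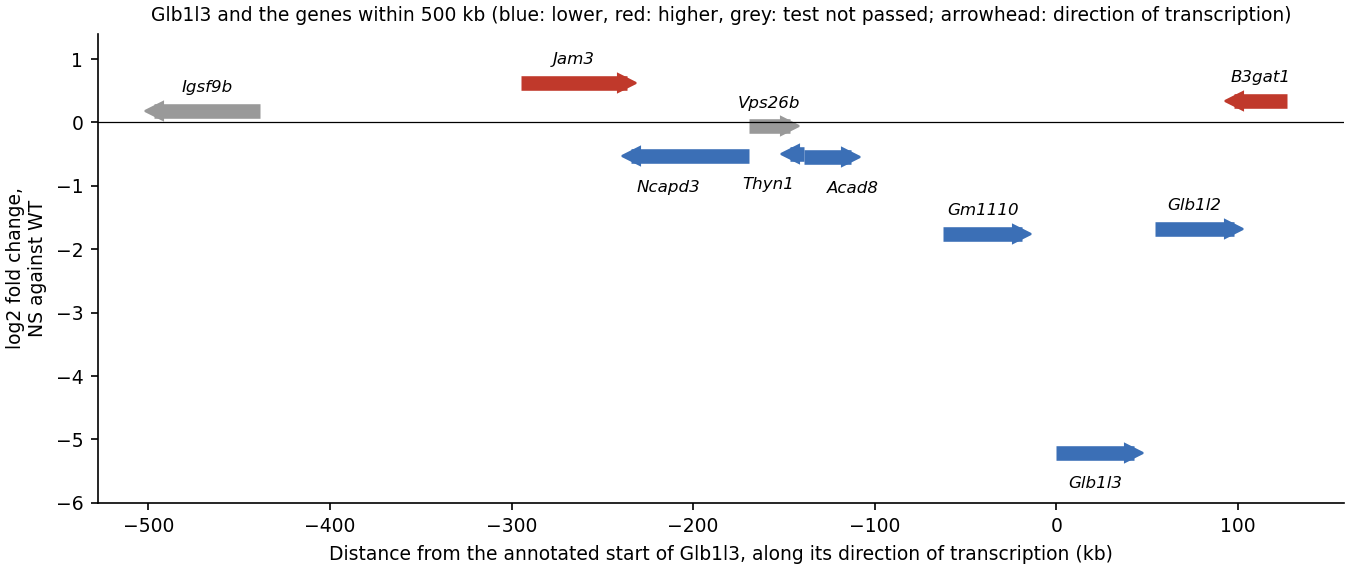
Glb1l3 and the 9 genes within 500 kb, placed by distance from the annotated start of Glb1l3 along its direction of transcription (horizontal axis, kb) and by log2 fold change in NS against WT (vertical axis); blue genes were lower, red higher and grey did not pass the test (Gm1110 passed the low-count filter only through WT, and Glb1l3 was chosen from its fall), and arrowheads give the direction of transcription. Gm1110 and Glb1l2 flank Glb1l3 on the same strand at -1.76 and -1.68, with Glb1l3 at -5.21.

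Around the other members genes passed in both directions, as did 31.2% (higher) and 30.1% (lower) of all genes. Of 13 tested genes within 500 kb of Glb1, 4 were higher (Crtap, Cmtm6, Cmtm7 and Gpd1l), 3 were lower (Ubp1, Cnot10 and Dync1li1) and 6 did not pass (Clasp2, Fbxl2, Susd5, Tmppe, Trim71 and Cmtm8). Of 29 tested around Glb1l, 11 were higher, with Wnt10a (1.74) and Prkag3 (1.43) the furthest, 10 were lower, with Cdk5r2 (-1.07) and Ankzf1 (-0.69) the furthest, and 8 did not pass. Wnt10a was low in WT, at 0.4 to 0.853 CPM. It passed the filter on low counts through its NS level, so its value is a description. Between the rd10 groups edgeR called none of either set. In them 2 of 13 and 3 of 29 had an unadjusted p under 0.05, against 2980 of 14765 over all genes. DESeq2 called 0 and 1, against 910 of 18173 genes fitted.

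The upstream sequences of Glb1l3 and Glb1 are shown because these genes moved in opposite directions. They are the 250 bases before the start annotated by RefSeq on GRCm38.p6. They lie at chr9:26860824-26861073 (minus strand) for Glb1l3 and chr9:114400828-114401077 (plus strand) for Glb1. Both windows run into the GENCODE M21 spans given above, which begin at 26860890 for Glb1l3 and at 114401076 for Glb1. Capitals mark the motif CACGTG. Both strands were searched for TAATCC (the core bound by the photoreceptor factors CRX and OTX2), TGCTGA (part of the site of the rod factor NRL) and CACGTG (the centre of the element bound by the lysosomal regulator TFEB); these motifs do not overlap one another in letters.
Glb1l3: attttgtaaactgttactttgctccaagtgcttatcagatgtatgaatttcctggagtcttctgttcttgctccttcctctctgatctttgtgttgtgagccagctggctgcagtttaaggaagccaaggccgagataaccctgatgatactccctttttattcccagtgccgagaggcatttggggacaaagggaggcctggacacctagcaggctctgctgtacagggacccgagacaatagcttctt
Glb1: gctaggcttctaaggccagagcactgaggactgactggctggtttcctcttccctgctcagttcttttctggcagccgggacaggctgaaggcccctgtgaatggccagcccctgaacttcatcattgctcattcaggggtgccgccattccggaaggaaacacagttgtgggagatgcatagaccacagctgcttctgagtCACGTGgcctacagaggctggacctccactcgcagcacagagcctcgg

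Glb1 held 1 CACGTG, beginning 48 bases before its start, and neither of the other motifs. Glb1l3 and Glb1l held none of the 3 in their windows. No upstream sequence was at hand for Glb1l2, so that gene was not searched. Of 32851 promoters of the same length, 6.25% held TAATCC, 16.1% TGCTGA and 6.02% CACGTG. A match is a description of these letters and not a bound site.

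The genes whose profile was nearest to that of Glb1l3 were found by the root-mean-square difference of log2 CPM, centred on WT, over the 9 libraries. Among 14907 genes these were Gm13304 (0.92), Gm3893 (0.93), Hdc (1.19), Ccl27a (1.39) and Pdzph1 (1.39). The same 5 came first on log2(FPKM + 0.1). Hdc had estimated counts of 289, 326 and 279 in WT, 29, 30 and 7 in NS and 23, 24 and 37 in MSC-EVs. Gm3893 had 108, 131 and 141 in WT, 5, 1 and 4 in NS and 6, 14 and 11 in MSC-EVs. Reads of some of these genes are shared with near-identical copies: all 50-base stretches of Gm13304 (100%), 97.7% of those of Gm3893 and 45% of those of Ccl27a occurred in other genes, against 0.141% for Hdc and 0% for Pdzph1. Of the family, Glb1l2 ranked 133, Glb1l 4013 and Glb1 13140. Pde6b ranked 34.

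The partners and the pathway of Glb1 were described by lists chosen with earlier results known. Ctsa, the protective protein, rose in NS from 101 ± 2.56 to 150 ± 9.92 CPM (SD, n = 3, log2 fold change 0.56, SE 0.06, adjusted p = 8.55e-06, edgeR). Neu1, the sialidase of the complex, had 44 ± 1.38 and 44.1 ± 3.87 CPM, a log2 fold change of -0.00 (95% interval -0.16 to 0.16, adjusted p = 0.996, edgeR).

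Of 29 lysosomal enzymes and cofactors that degrade glycans and glycolipids, 21 were higher in NS, 2 lower and 6 did not pass, with a median log2 fold change of 0.44 against 0.01 over all genes, of which 31.2% were higher and 30.1% lower. Among the higher genes were Gusb, the beta-glucuronidase (1.59, SE 0.09, adjusted p = 3.1e-08, edgeR), and Manba, the beta-mannosidase (1.02, SE 0.12, adjusted p = 1.21e-05, edgeR). The 2 lower genes were Smpd1 (-0.59), the acid sphingomyelinase, and Hgsnat (-0.31), of heparan sulfate breakdown. Summed over the list the level was 2252 to 2289 CPM in WT, 3022 to 3208 CPM in NS and 2790 to 3070 CPM in MSC-EVs, so both rd10 groups lay above WT and overlapped each other.

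Of 11 ganglioside synthesis enzymes, 6 were higher in NS, 2 lower and 3 did not pass (median 0.35), so 8 of 11 were called where 61.3% of all genes were. B4galt6 (1.01) and B4galt5 (0.87), which add galactose to glucosylceramide, and Ugcg (0.44), which makes glucosylceramide, were the furthest up. St8sia1 (-1.08), the GD3 synthase, and St3gal1 (-1.01), a sialyltransferase, were lower. Of 15 keratan sulfate core proteins and enzymes, 9 were tested, of which 7 were higher, 1 lower and 1 did not pass (median 0.71). Among the 9, B3gnt7 had 0.179 to 0.224 CPM in WT and 0.539 to 0.824 CPM in NS. It passed the filter on low counts only through its NS level, so its part in these counts is a description. The core proteins Fmod (2.97), Ogn (1.69) and Prelp (1.67) had the furthest rises, and B4galt1 (-0.81), a galactosyltransferase, was lower. Kera had 0 counts in WT and in NS.

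Few genes of these lists passed between the rd10 groups, where edgeR called 1.16% of 14765 genes and DESeq2 called 910 of 18173 genes fitted. Of the 14765 genes, 2980 had an unadjusted p under 0.05 with edgeR. Of the lysosomal list 0 of 29 passed with edgeR (median -0.06); 2 had an unadjusted p under 0.05 and DESeq2 called 0. Of the ganglioside list 0 of 11 passed with edgeR (median 0.03); 3 had an unadjusted p under 0.05 and DESeq2 called 2. Of the keratan sulfate list 1 of 9 passed, Fmod, lower in MSC-EVs (-0.67, SE 0.11, adjusted p = 0.0343, edgeR); 3 had an unadjusted p under 0.05 and DESeq2 called 2. Leaving out any one of NS replicate 1, NS replicate 3 and MSC-EVs replicate 1 took the count to 0. Against WT, MSC-EVs had 20 higher and 2 lower of the 29 lysosomal genes, 7 higher and 3 lower of the 11 ganglioside genes, and 4 higher and 1 lower of 8 tested keratan sulfate genes. In that comparison 28.3% of all genes were higher and 27.2% lower.

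**Figure D5:**
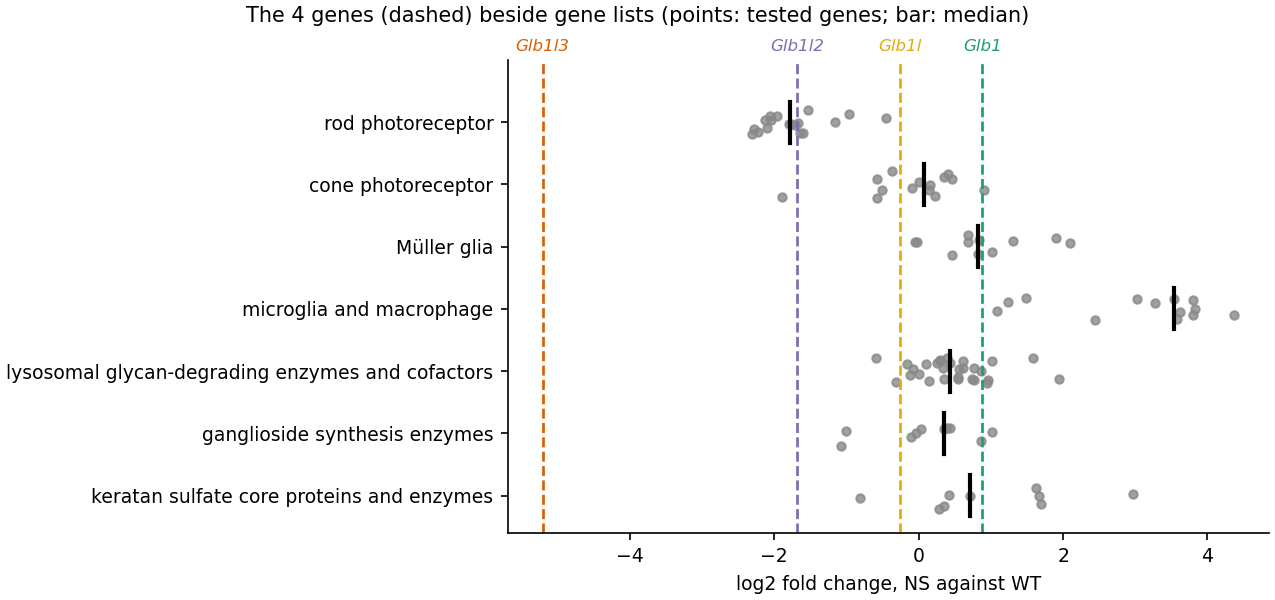
Log2 fold change in NS against WT (horizontal axis) of the tested genes of 7 lists (points, black bar the median), with the 4 family genes as dashed lines. Glb1l3 at -5.21 lies below every rod marker shown, Glb1l2 at -1.68 lies among them, and Glb1 at 0.88 lies among the lysosomal genes, whose median is 0.44.

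Markers of other cells were set beside the same contrast. Of all genes 61.3% passed in it, 31.2% higher and 30.1% lower. All 13 microglia and macrophage markers rose in NS (median 3.54), and their summed level was 45.1 to 49.2 CPM in WT and 352 to 444 CPM in NS. Of these, Aif1 and Ptprc were low in WT, at 0.179 to 0.359 and 0.224 to 0.701 CPM. They passed the filter on low counts through their NS level, so their part in the count is a description. C1qa, a complement subunit, was the median marker (3.54). Of 11 Müller glia markers 9 were higher (median 0.82; Dkk3 0.82), of 14 amacrine and ganglion cell markers 10 were higher (median 0.29; Tfap2b 0.31), and of 12 bipolar cell markers 5 were higher and 2 lower (median 0.09; Vsx1 0.11). Of 14 cone markers 4 were higher and 4 lower (median 0.07; Gngt2 0.14), of 14 retinal pigment epithelium markers 6 were higher (median 1.22; Ttr 1.29, not passed), and of 10 lens and ciliary body markers 4 were higher (median -0.14; Mip 0.20, not passed). The bipolar cell, cone, pigment epithelium and lens lists did not exceed the 61.3% of all genes that passed in either direction. Best1, Mlana and Slc45a2 of the pigment epithelium list were low in WT and passed the filter on low counts through NS. In lists of even length the marker named is the upper of the middle pair, so Mip and the lens median differ in sign. No gene of these marker lists was at 0 in every library of a group. Their part in the changes of Glb1l3, Glb1l2 and Glb1 was not tested.

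Between the rd10 groups the microglia list (0 of 13 passed with edgeR, 0 with an unadjusted p under 0.05, 0 by DESeq2) and the rod list (0 of 18 passed, 3 with an unadjusted p under 0.05, 1 by DESeq2) had medians of 0.02. In the Müller glia list 1 of 11 passed, Car14 (-0.51), 5 had an unadjusted p under 0.05 and DESeq2 called 3; its summed level was 7530 to 8977 CPM in NS and 6844 to 7028 CPM in MSC-EVs, with no overlap. In the retinal pigment epithelium list 1 of 14 passed, Rrh (-0.46), 5 had an unadjusted p under 0.05 and DESeq2 called 2. Its sums of 694 to 829 CPM in NS and 496 to 610 CPM in MSC-EVs did not overlap either. Rlbp1 was counted in both this list and the Müller glia list. It alone gave 453 to 578 CPM in NS and 333 to 405 CPM in MSC-EVs, the larger part of the pigment epithelium sums. In the bipolar cell list 2 of 12 passed, Pcp2 (-0.41) and Gng13 (-0.43), 6 had an unadjusted p under 0.05 and DESeq2 called 3. With edgeR 0 of 14 cone, 0 of 14 amacrine and ganglion cell and 0 of 9 lens and ciliary body markers passed, where 6, 6 and 2 had an unadjusted p under 0.05 and DESeq2 called 3, 1 and 0. Of all genes 1.16% passed in this comparison with edgeR, and 2980 of 14765 had an unadjusted p under 0.05. DESeq2 called 910 of 18173 genes fitted. The part of these markers in the values of the 4 family genes between the rd10 groups was not tested.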

How the data were processed

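Retinal mRNA was sequenced at P28, with 3 libraries for each of 3 groups (WT, NS, MSC-EVs). The authors deposited an estimated count and an FPKM value for each gene and library; the estimated counts were not scaled, and the authors normalized FPKM for transcript length and library depth. The submitters' processing notes name fastp, Bowtie2, HISAT2, StringTie 1.3.1 and RSEM; the genome build, the annotation and use of strand are not given in the sources used here. Between 9.2% and 11.7% of genes per library had decimals, so counts were rounded. The paper names no test for these data.

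Each pair of groups was fitted on its 6 libraries over all genes with edgeR 4.0.16 in R 4.3.3 (filterByExpr, TMM, robust glmQLFit, glmQLFTest), with Benjamini-Hochberg adjustment over all genes tested and a threshold of 0.05. CPM values use TMM. The script was tested on simulated counts. Genes below the filter were not tested. Total counts ranged from 19491717 to 62532343, so 1 count weighs differently between libraries. Positions came from GENCODE M21, which held 22283 of 22337 identifiers. Coding sequences were translated and aligned to give identities.

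The members and lists were chosen with earlier results of these data known. Genes named were the 4 members, tested neighbours within 500 kb (those of Glb1l by count and extremes), the 3 furthest rises and falls of each pathway list among those called, list genes called between the rd10 groups, the 5 nearest profiles, Pde6b, Ctsa, Neu1, markers at 0 and the median marker of each list; the genes beside Glb1l3 in the order of falls and the values of Ankzf1 and Tmppe were added after their values were seen. Of the pathway genes so named, 1 is not reported here. Alternatives were DESeq2 1.42.0, other size factors, no filter, all 9 libraries, a replicate block, limma 3.58.1 on log2(FPKM + 1) and log2(FPKM + 0.1), and each library left out. Leaving out the 2 MSC-EVs libraries with Y-linked counts was added after seeing the data.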

Additional observations from a re-analysis of the deposited data

How the results depend on the processing

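Glb1l2 and Glb1 kept their direction and their side of the threshold against WT under every alternative run. For Glb1l3, chosen from its fall, only the range of the value is given. In NS against WT the log2 fold change ran from -5.49 to -2.16 for Glb1l3 (the smallest with limma on log2(FPKM + 1), a scale that understates the change of low genes), from -1.75 to -1.47 for Glb1l2 and from 0.86 to 1.05 for Glb1. Glb1l turned positive with limma on log2(FPKM + 1) (0.14) and log2(FPKM + 0.1) (0.17), and leaving out a library gave -0.34 to -0.18; without NS replicate 2 it passed (-0.34, adjusted p = 0.0499, edgeR). Between the rd10 groups Glb1l, at -0.00, ran from -0.09 to 0.08 with a library left out and gave 0.00 with the replicate block. Limma gave -0.16 on log2(FPKM + 1) and -0.21 on log2(FPKM + 0.1), and none of these passed. Without the 2 libraries with Y-linked counts the log2 fold change was 0.16 for Glb1l2, -0.10 for Glb1l and -0.22 for Glb1.

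The replicate numbers were not treated as pairs, because no label ties them. The paper states that littermates were used for the 2 rd10 treatments, but it ties no library to a litter. Same-numbered libraries correlated in their deviations from -0.0586 to 0.0765 in the comparisons with WT. Between the rd10 groups the correlations were 0.0932, 0.174 and 0.272. Each NS library correlated best with the MSC-EVs library of its own number, a hint from the data. The reverse, from MSC-EVs to NS, was not checked. With the replicate block the number of genes called between the rd10 groups went from 172 to 403, in NS against WT it was 8971 in place of 8972, and 2 keratan sulfate genes were called in place of 1. DESeq2 called 910 of 18173 genes between the rd10 groups and the fit of all 9 libraries 1026 of 14908.

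Between the rd10 groups the ganglioside count of 0 became 2 with DESeq2, 3 with all 9 libraries and 0 to 1 with a library left out. The keratan sulfate count of 1 became 2 with DESeq2, 2 with all 9 libraries and 0 to 2 with a library left out. The lysosomal count stayed at 0 in each of these. Counts without the 2 libraries with Y-linked counts are not given, because a single MSC-EVs library remained. The causes were not tested. With 2 to 31 counts in an rd10 library, Glb1l3 allows no finer statement there.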
